A study of Caenorhabditis elegans with 119 samples.

Results

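The msp, ssp and nspd genes of Caenorhabditis elegans encode small proteins of sperm. The members described here are all protein-coding genes whose symbol begins with msp-, ssp- or nspd-, and no measured value was used to choose them. They number 53 of the 46926 genes counted, with 31 msp, 12 ssp and 10 nspd genes. The symbol ssp-9 is paired with 2 gene identifiers, WBGene00006038 and WBGene00006040.

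The major sperm proteins encoded by the msp genes form the filaments with which nematode sperm crawl, in place of actin. Released from sperm, they also act as a hormone that triggers oocyte maturation and contraction of the sheath cells around the ovary. A hermaphrodite makes its sperm late in larval life and then switches to oocytes, so the adult germline holds stored sperm but normally makes no more. The ssp genes belong to the sperm-specific family class P, and the nspd genes to the nematode-specific peptide family group D.

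RNA of whole adult worms was sequenced, with about 50 worms pooled per library. Wild-type N2 worms on sulforaphane (SFN), an isothiocyanate from broccoli, or on its solvent DMSO gave 40 libraries, 4 for each treatment at days 2, 4, 8, 12 and 16. Trials 2 and 3 added 40 N2 libraries on DMSO, 4 for each trial at those ages. Of the mutants, PX991 carries daf-16(fx107) and EU1 carries skn-1(zu67). Both were collected at 2 ages, days 4 and 12, on SFN and on DMSO, PX991 as 4 libraries a group and EU1 as 6, or 5 for SFN at day 4. All worms were kept at 20 °C with 0.25% DMSO in the plates and, from day 1 of adulthood, 51 µM of FUdR, a drug that blocks DNA synthesis and with it the growth of progeny. The labels give the tissue as whole worm and do not state the sex. In RNA from whole worms, fewer cells of a type and less RNA per cell cannot be told apart.

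The N2 treatment table held libraries of 0.445 to 12.5 M counts (1 M is 1e6), and those of trials 2 and 3 had 1.07 to 8.61 M. PX991 libraries had 0.585 to 5.46 M counts and EU1 libraries 2.06 to 10.3 M. Levels are counts per 1e6 with TMM scaling (CPM), so 1 count was worth 1.82 CPM in the shallowest library, N2 DMSO day 4 replicate 4, and 0.109 to 0.56 CPM in N2 on DMSO at day 8. That shallowest library and PX991 SFN day 12 replicate 3 stood apart in the number of genes found at a common depth, with 6660 genes in the first and 15318 in the second. Levels of skn-1 were 78.8 to 150.5 CPM in EU1 and 223.5 to 332.1 CPM in N2. Those of daf-16 were 54.1 to 172.5 CPM in PX991 and 109.4 to 263.9 CPM in N2, which overlap.

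Of the msp genes, 18 lie on chromosome IV and 13 on chromosome II, and most members fall into clusters (WBcel235, gaps of at most 300 kb). A cluster of 12 members spans 414.3 kb of chromosome II (4785898 to 5200180) and holds 10 msp and 2 nspd genes. A further 3 msp genes lie at 5797065 to 5810330 on the same chromosome. On chromosome IV, 13 members lie at 4994371 to 5316906 and 14 at 9689015 to 10269187, and both clusters mix msp, ssp and nspd genes. The exons of 28 of the 31 msp genes sum to 384 bases, those of nspd genes to 213 to 222 bases and those of ssp genes to 324 to 451 bases. Copies so alike may share reads, so the level of a single msp gene is less certain than the family sum. The genes msp-31, msp-33, msp-38 and msp-45 overlap another gene's body, with 0 exonic bases shared.

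With levels divided by exon length and averaged over all libraries of all strains, msp-57 was the most abundant msp gene at 9.27 CPM per kb, followed by msp-81 at 7.92, msp-36 at 7.57 and msp-59 at 7.51. Among nspd genes, nspd-7 had 12.5 CPM per kb, nspd-1 9.96, nspd-2 6.45 and nspd-5 4.58. The ssp genes were led by ssp-10 at 6.57 CPM per kb, with ssp-35 at 3.95, ssp-37 at 3.45 and ssp-16 at 2.49. This order is set by the older libraries with many member counts. In the 51 libraries of days 2 and 4 msp-57 had 2 counts in all, while msp-31, of the same exon length, had 336.

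In N2 on DMSO, the summed RNA of the 3 families was low on days 2 and 4. It was higher in every library of the treatment table from day 8 on. At day 2 the means were 1.09 CPM for msp, 1.01 for nspd and 5.26 for ssp genes, which held 70.2% of the member counts. At day 4 nspd genes had a mean of 1.28 CPM and ssp genes 1.53 CPM. The summed CPM of all members at day 4 was 6.45, 11.3, 7.28 and 9.11 in replicates 1 to 4. At day 8 the 4 libraries had 62.2, 89.9, 98.6 and 163.7 CPM, and at day 12 they had 190.8, 234.4, 399.5 and 308.4 CPM. The ranges of these 3 ages did not overlap. At day 16 the sums were 232.7, 301.6, 195.8 and 845.3 CPM, so 3 libraries lay within the range of day 12 and replicate 4 lay far above it. The msp genes made up 49.6% of the member counts at day 4, 67.7% at day 8, 75.3% at day 12 and 73.1% at day 16. Their sum was 5.72 ± 4.23 CPM (SD, n = 4) at day 4, 73.3 ± 36.1 at day 8, 212.8 ± 73.6 at day 12 and 288.2 ± 227.5 at day 16. Genes of the nspd family stood at 16.2 ± 6.2, 45.5 ± 10.4 and 72.0 ± 55.3 CPM and ssp genes at 14.1 ± 3.5, 24.9 ± 8.0 and 33.7 ± 21.6 CPM at days 8, 12 and 16.

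**Figure D1:**
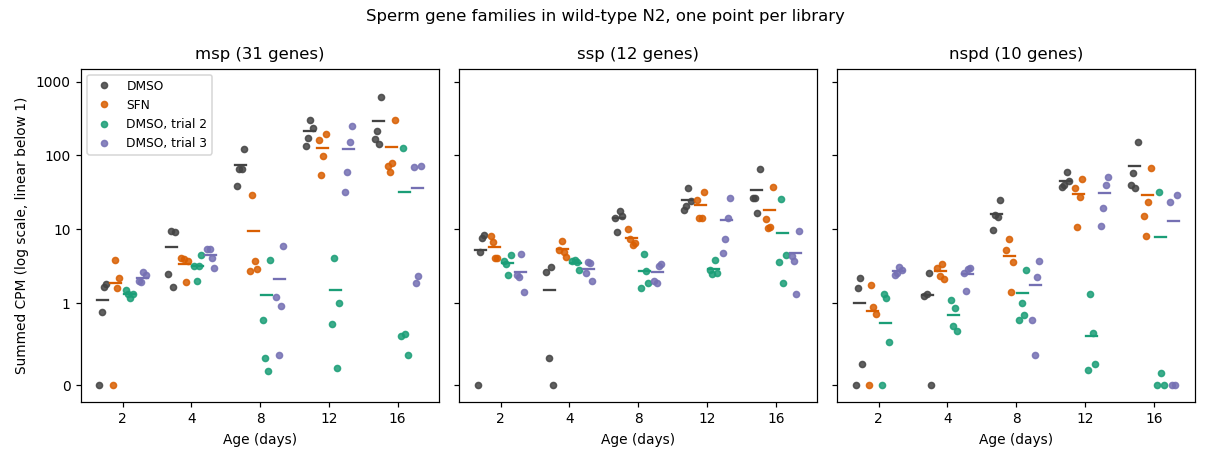
Summed CPM of the msp, ssp and nspd genes in every N2 library against age, on an axis that is logarithmic above 1 and linear below; points are libraries, horizontal bars are group means, and colours mark DMSO, SFN and the DMSO libraries of trials 2 and 3. The msp sums of the 4 DMSO libraries at day 8 of the treatment table lie between 38.2 and 123.9 CPM, above the 2.77 to 29.1 CPM of the SFN libraries. All libraries of trials 2 and 3 lie below those DMSO libraries at that age.

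Tests used edgeR's quasi-likelihood test with Benjamini-Hochberg adjustment over all genes tested, and a gene is called where the adjusted p is under 0.05. Among N2 libraries on SFN and DMSO, 40 of the 53 members passed the filter on low counts, 26 msp, 5 ssp and 9 nspd genes. Since they passed through the older groups, in which they are high, counts over the 40 describe the families and are not support for a change with age. The rest had too few counts to be tested.

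Between days 4 and 8 on DMSO, 33 of the 40 rose and none fell, where 40.1% of all genes tested were called, 25.3% as higher. They were 22 of 26 msp genes, 5 of 5 ssp genes and 6 of 9 nspd genes. The median log2 change over all genes was 0.20 in this step, and that of the 40 members was 2.98 with genes at 0 counts set to their bound. At day 4, 27 of the 40 had 0 counts in all 4 DMSO libraries and 8 more had 1 to 3. The groups did not overlap for 34 of the 52 members with a count, all of them higher at day 8, where 16.9% of all genes with a count were higher without overlap.

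The crawling-protein gene msp-57 (chromosome IV, 5062578 to 5062961) had 0 counts at days 2 and 4 and 1.74, 4.66, 5.87 and 6.17 CPM at day 8. It reached 11.8, 14.2, 28.4 and 20.1 CPM at day 12 and 14.3, 19.9, 9.30 and 55.9 CPM at day 16. Every library of day 12 was above every one of day 8, while days 12 and 16 overlapped. The step from day 4 to day 8 was at least 4.49 on the log2 scale, against a floor of 3 counts over the day 4 group. For msp-33 (chromosome II, 4892311 to 4892694), with 0 counts at day 4 and 2.61, 2.33, 3.04 and 6.73 CPM at day 8, the step was at least 4.17 (adjusted p = 0.00083, edgeR). For ssp-35 (chromosome V, 12263500 to 12263823) the bound was 3.20 (adjusted p = 0.00027, edgeR), with 1.63, 1.04, 2.63 and 2.24 CPM at day 8. In each of these genes all 4 day 8 libraries had counts and no day 4 library did.

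The same held for msp-50 (chromosome II, 5199797 to 5200180), at 0.979, 1.55, 2.63 and 3.92 CPM on day 8 and at least 3.47 higher on the log2 scale (adjusted p = 0.00074, edgeR). The peptide gene nspd-2 (chromosome IV, 9844060 to 9844272) had 1.52, 2.33, 2.02 and 3.92 CPM at day 8 and rose by at least 3.58 (adjusted p = 0.00076, edgeR). With 1 count over the day 4 group, msp-76 (chromosome IV, 9689015 to 9689398) was 56.3 times as abundant at day 8 (95% counting interval 9.80 to 2252; adjusted p = 0.00077, edgeR). Its day 8 libraries had 2.50, 5.70, 3.85 and 6.73 CPM. These intervals cover counting error only.

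Between days 8 and 12 on DMSO, 14 of the 40 members rose and none fell, where 18.5% of all genes were called and 6.75% as higher. They were 9 of 26 msp genes and 5 of 9 nspd genes, and none of the 5 tested ssp genes passed, though ssp-16, ssp-34 and ssp-35, with positive changes, and ssp-37, with a negative one of -1.07 ± 0.51, had an unadjusted p under 0.05. The median log2 change of the 40 was 1.72, and 33 had an unadjusted p under 0.05. The groups did not overlap for 21 of 53 members, all higher at day 12, where 9% of all genes with a count were higher without overlap. The gene msp-51 went from 0.979, 1.55, 0.405 and 1.68 CPM to 4.22, 5.89, 10.7 and 7.57 CPM, with no overlap (log2 change 2.73 ± 0.70, SE; adjusted p = 0.0050, edgeR). For msp-45 (chromosome II, 5156700 to 5157083) the libraries moved from 2.39, 4.14, 0.607 and 2.80 CPM to 7.12, 6.25, 12.7 and 12.4 CPM, again without overlap (1.99 ± 0.53, adjusted p = 0.0058). The other genes named by the smallest adjusted p were nspd-6 (2.92 ± 0.83, adjusted p = 0.010), msp-55 (2.13 ± 0.64, 0.016), msp-59 (1.61 ± 0.53, 0.026) and nspd-3 (2.34 ± 0.77, 0.028), all from edgeR. The count was sensitive to single libraries. Without replicate 1 of day 8 it was 2, without replicate 3 of day 12 it was 3, and without replicate 2 of day 8 or replicate 4 of day 12 it was 6 and 7. It was 17 without replicate 1 of day 12.

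From day 12 to day 16 edgeR called 0 of the 40 members, where 4.26% of all genes were called, with 1 member at an unadjusted p under 0.05 and 0 called by DESeq2. The median log2 change was 0.48.

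**Figure D2:**
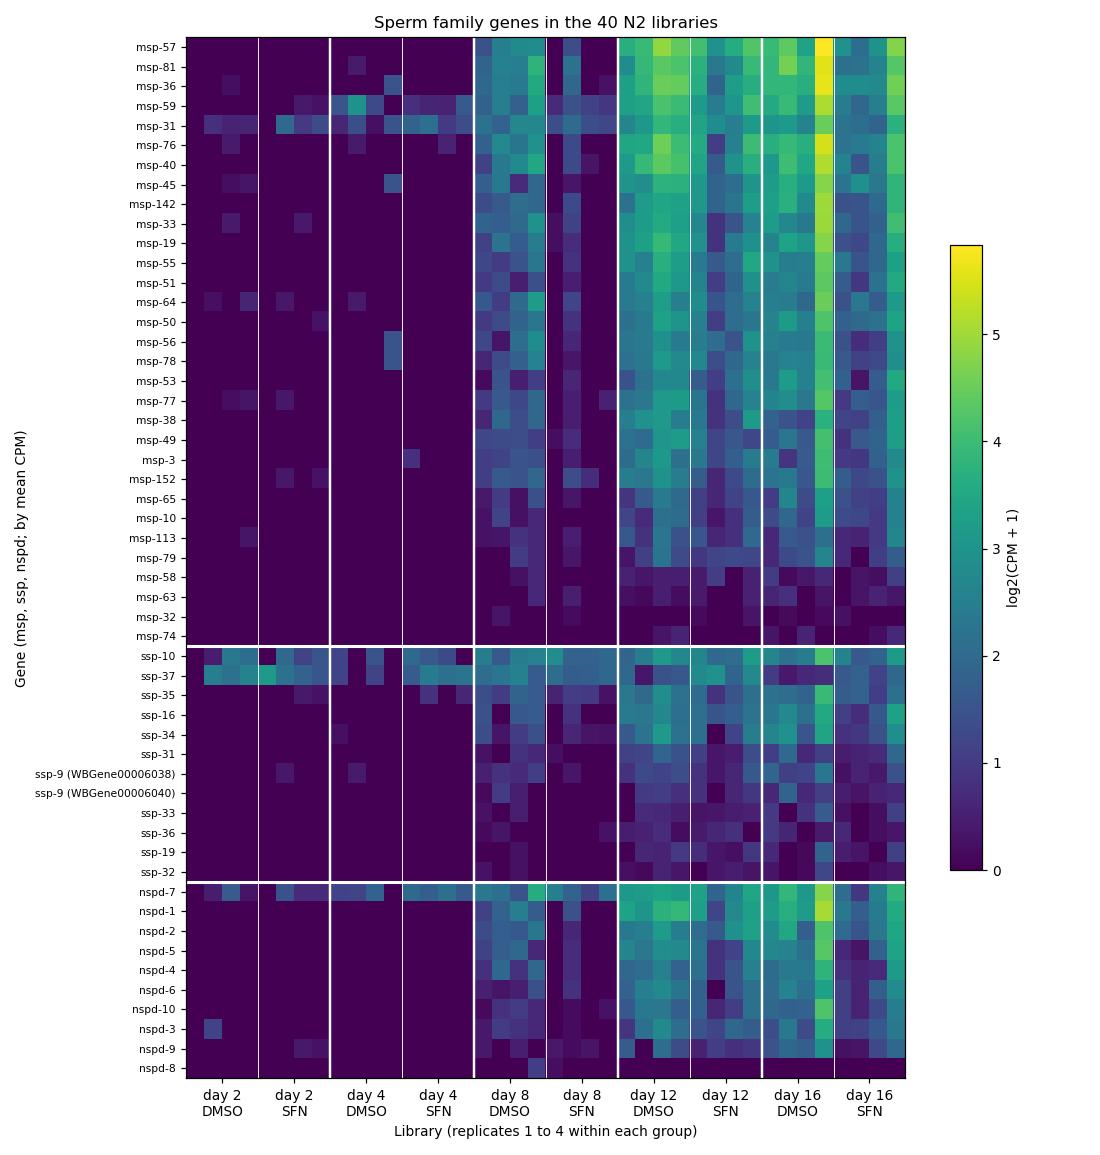
Level of each of the 53 genes (rows, by family and then by mean CPM) in the 40 libraries of the N2 treatment table (columns, replicates 1 to 4 of each group), as log2(CPM + 1). Most rows are at 0 on days 2 and 4 and filled from day 8 on DMSO, while at day 8 on SFN only replicate 2 is filled, and a few rows hold counts at every age.

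A small group of members was counted on days 2 and 4 as well. Over the 51 libraries of those ages, 1384 of 1537 member counts, or 90.05%, came from 6 genes, msp-31, msp-59, ssp-10, ssp-35, ssp-37 and nspd-7. The other 47 genes had 153 counts in all, and 9 of them had none. From day 8 on, over 68 libraries, the 6 gave 16.7% of 46144 member counts. These 6 were picked after their counts were seen, so the split is a description. In N2 on DMSO they summed to 6.33 ± 3.38 CPM (SD, n = 4) at day 4, 23.5 ± 8.0 at day 8 and 41.4 ± 11.2 at day 12, while the other 47 went from 2.20 ± 3.45 to 80.0 ± 35.6 and 242 ± 80 CPM.

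**Figure D3:**
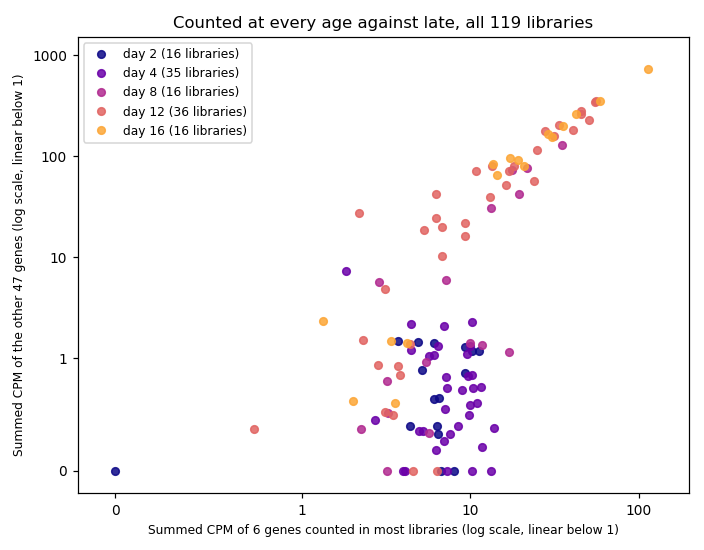
Summed CPM of the 6 genes counted in most libraries (x axis) against that of the other 47 (y axis) in all libraries of all strains, coloured by age, both axes logarithmic above 1 and linear below. Libraries of days 2 and 4 spread along the x axis at low y values, and both sums are high in the libraries with many member counts from day 8 on.

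Among the 6, ssp-37 (chromosome I, 12561040 to 12561560) had its own course. On DMSO it was at 0, 4.65, 3.52 and 5.13 CPM on day 2, at 1.25, 0, 1.27 and 0 CPM on day 4, and at 3.26, 3.88, 4.86 and 2.24 CPM on day 8. On day 12 the libraries had 2.90, 0.268, 1.74 and 1.98 CPM and on day 16 1.03, 0.317, 0.575 and 0.690 CPM. It was low on day 4 and again on day 16, at which the msp genes had their highest mean. It fell from day 2 to day 4 (log2 change -2.11 ± 0.64, adjusted p = 0.011, edgeR) and rose to day 8 (2.02 ± 0.63, adjusted p = 0.0097). In the same step from day 2 to day 4, msp-59 (chromosome IV, 5312728 to 5313111) rose by at least 3.80 on the log2 scale, from 0 counts to 1.97, 6.95, 1.46 and 0 CPM (adjusted p = 0.00040, edgeR). These were the only 2 of 40 members called in that step, where 26.4% of all genes were called, 13.8% as higher and 12.6% as lower. From day 4 to day 8, msp-31 (chromosome II, 4916179 to 4916562) rose by 2.48 ± 0.68 (adjusted p = 0.0033) and ssp-10 (chromosome IV, 9850702 to 9851031) by 1.87 ± 0.72 (adjusted p = 0.034), both from edgeR. The first went from 0.537, 1.66, 0.182 and 1.82 CPM to 3.59, 2.59, 5.47 and 5.61 CPM, without overlap, and the second from 1.25, 0, 1.82 and 0 CPM to 4.57, 2.07, 4.45 and 5.04 CPM, also without overlap.

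Genes of sperm outside the 3 families were taken from a list of 44 spe-, fer- and other sperm genes, of which 28 were tested. Of these, 12 rose and 2 fell from day 4 to day 8, with a median log2 change of 1.47, and 12 rose and 0 fell from day 8 to day 12, with a median of 1.43. The sperm phosphatase gene gsp-4 had 0 CPM in every DMSO library of day 4, 2.04 ± 0.75 CPM (SD, n = 4) at day 8 and 10.8 ± 3.4 at day 12 (log2 change from day 8 2.39 ± 0.50, SE; adjusted p = 0.00038, edgeR). The PDZ-domain sperm gene smz-1 also rose between days 8 and 12 (2.27 ± 0.51, adjusted p = 0.00097). The gene spe-11, whose product sperm deliver to the embryo, was at 0 CPM on day 4, 4.65 ± 1.10 on day 8 and 12.2 ± 3.4 on day 12. The summed CPM of the list was 459.4 to 600.5 at day 4 and 502.7 to 571.1 at day 8, which overlap. With gsp-4 and spe-11 at 0 CPM on day 4, that sum came from other genes of the list and does not describe these.

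Markers of other cell types were read beside this rise. Of 12 genes of male tissues, 2 were tested and neither was called, or had an unadjusted p under 0.05, from day 4 to day 8 or from day 8 to day 12 (edgeR). Their sum ran from 0 to 6.37 CPM at day 4, from 5.04 to 8.81 at day 8 and from 4.22 to 7.77 at day 12. In the library with the highest member sum, DMSO day 16 replicate 4, 7 of the 12 male genes had a count, and cwp-1, cwp-2, cwp-3, pkd-2 and cil-7 were at 0. The first 3 of these were at or near 0 in most groups. Of 17 genes of moulting larvae, 7 were tested and 2 rose from day 4 to day 8, with sums of 18.2 to 35.1 CPM and 33.9 to 70.6 CPM. Of 10 early embryo genes, 8 were tested, 3 rose and 1 fell, with sums of 231.4 to 274.7 CPM at day 4 and 182.8 to 196.1 CPM at day 8. Of 17 oocyte and eggshell genes 3 rose and 6 fell from day 4 to day 8, of 6 sheath genes 2 rose and 1 fell, and of 12 tested genes of MSP signalling 4 rose and 3 fell. The part of these cells in the result was not tested.

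The age course differed in trials 2 and 3. In trial 2 the member sums were 3.18, 5.99, 3.76 and 8.57 CPM at day 8 and 3.76, 7.92, 4.66 and 3.82 CPM at day 12. At day 16 they were 4.19, 184.2, 2.64 and 4.86 CPM. Replicate 2 of day 16 alone held the families at a level seen in the treatment table. In trial 3 the sums were 3.99, 2.60, 6.42 and 13 CPM at day 8, 48.5, 87.6, 205.5 and 328.2 CPM at day 12 and 96.9, 5.63, 3.68 and 111.4 CPM at day 16. All 4 libraries of trial 3 at day 12 were high, and 2 of 4 at day 16. The tables were scaled separately, so levels set across them carry that difference too.

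In trials 2 and 3 together 19 members passed the filter, 11 msp, 2 ssp and 6 nspd genes. Members near 0 at the younger ages could pass only through older libraries in which they are high. Counts over the 19 therefore describe the families and are not support for a change with age. From day 4 to day 8 none of the 19 rose and 1 fell, where 30.7% of all genes were called, 14.9% as lower. It was msp-31, which went from 2.45, 0.863, 1.89 and 2.50 CPM to 0.796, 0.333, 0.171 and 0 CPM in trial 2 and from 5.49, 2.93, 2.63 and 2.30 CPM to 1.20, 0.371, 0.321 and 1.55 CPM in trial 3 (log2 change -2.04 ± 0.64, adjusted p = 0.012, edgeR). The ages did not overlap in either trial, and the direction was opposite to that in the treatment table. From day 8 to day 12 edgeR called msp-36 (chromosome IV, 10095433 to 10095816) as higher, where 34.9% of all genes were called, 17.2% as higher, with 6 of 19 members at an unadjusted p under 0.05. It had 0 counts in all 8 libraries of day 8, so it passed the filter through older libraries and its call is a description. At day 12 it had 0, 0.360, 0 and 0 CPM in trial 2 and 1.43, 4.82, 12.9 and 12.0 CPM in trial 3, so nearly all of its counts were in trial 3 (adjusted p = 0.048). Its adjusted p ran from 0.00049 to 1.0 over the alternatives tried. In the same step 4 of 7 early embryo genes and 3 of 7 larval genes rose and none fell, and of 17 oocyte and eggshell genes 2 rose and 12 fell. In trial 3 the embryo sum was 145.8 to 175.5 CPM at day 8 and 158.9 to 218.5 at day 12, and the larval sum 14.3 to 38.2 and 46.2 to 60.3. Their part in the result was not tested. From day 2 to day 4 and from day 12 to day 16 edgeR and DESeq2 called 0 of 19, with 1 member each at an unadjusted p under 0.05, where edgeR called 21.3% and 12.9% of all genes.

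SFN was compared with DMSO at each age of the N2 treatment table. At day 8 the families were lower on SFN than on the DMSO of the same table. Their summed CPM was 18.1, 43.95, 11.3 and 13.1 in the SFN libraries and 62.2, 89.9, 98.6 and 163.7 in the DMSO libraries. The groups did not overlap, and SFN replicate 2 was the nearest to them. The msp genes had 2.77, 29.1, 3.77 and 2.94 CPM on SFN and 38.2, 65.0, 66.2 and 123.9 CPM on DMSO, again without overlap. Their mean was 9.64 CPM on SFN and 73.3 CPM on DMSO. In the DMSO libraries of trials 2 and 3 at day 8 it was 1.28 and 2.10 CPM, below both. Those libraries were scaled separately and were not tested against SFN, so the difference holds within the treatment table only. The ssp genes had 7.58 ± 1.79 CPM (SD, n = 4) on SFN and 14.1 ± 3.5 CPM on DMSO. The nspd genes had 5.22, 7.37, 1.41 and 3.62 CPM on SFN and 9.90, 15.5, 14.8 and 24.7 on DMSO. Of the 53 members, 12, 43, 10 and 11 had a count in SFN replicates 1 to 4 and 46, 42, 48 and 45 in the DMSO libraries.

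At day 8, 8 of the 40 tested members fell and none rose, where 3.53% of all genes were called, 0.683% as lower. They were 7 of 26 msp genes and 1 of 9 nspd genes, with 0 of 5 ssp genes, of which ssp-16, ssp-34 and ssp-35 had an unadjusted p under 0.05. All 40 fitted changes were negative, 31 had an unadjusted p under 0.05, and their median log2 change was -2.66, against -0.02 over all genes. It was -2.85 among msp genes, -2.38 among nspd genes and -1.38 among ssp genes. The SFN group lay below the DMSO group without overlap for 20 of 52 members, where 3.36% of all genes with a count did so.

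The gene msp-45 had 0, 0.268, 0 and 0 CPM on SFN and 2.39, 4.14, 0.607 and 2.80 CPM on DMSO. Only SFN replicate 2 had counts, 2 in all, and the groups did not overlap (log2 change -4.46 ± 0.93, adjusted p = 0.0016, edgeR). With so few counts the ratio of pooled levels was 0.0386 with a counting interval of 0.00454 to 0.148. For msp-78 (chromosome IV, 9770046 to 9770429) the values were 0, 0.268, 0 and 0 CPM on SFN and 0.544, 1.55, 2.43 and 5.04 CPM on DMSO, again without overlap (-4.23 ± 1.01, adjusted p = 0.0082), a ratio of 0.0555 (0.00645 to 0.218). For nspd-2 the SFN libraries had 0, 0.536, 0 and 0 CPM and the DMSO libraries had 1.52, 2.33, 2.02 and 3.92 CPM (-3.54 ± 0.90, adjusted p = 0.016).

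The same pattern, with counts in SFN replicate 2 and none in the other SFN libraries, was seen in msp-76, msp-56 and msp-64. In msp-76 replicate 2 had 1.47 CPM, below all of the DMSO libraries at 2.50 to 6.73 CPM (-3.17 ± 0.83, adjusted p = 0.018). For msp-56 (chromosome IV, 9841540 to 9841923) replicate 2 had 0.536 CPM, above the lowest DMSO library at 0.259 CPM, so the groups overlapped (-3.66 ± 0.99, adjusted p = 0.024). For msp-64 (chromosome II, 5809947 to 5810330) it had 1.34 CPM, which lay above the lowest DMSO library at 1.04 CPM (-2.88 ± 0.83, adjusted p = 0.039). These adjusted p values come from edgeR. The abundant msp-57 had 1.61 CPM in SFN replicate 2 and 0 in the others, against 1.74 to 6.17 CPM on DMSO, and was not among those called. The count of 8 depended on single SFN libraries. It was 2 without SFN replicate 1, 19 without replicate 2, 3 without replicate 3 and 2 without replicate 4. Without DMSO replicates 1 to 4 in turn it was 9, 5, 4 and 4. Over these 8 settings msp-45 and msp-78 kept their calls in each, while nspd-2 lost its call in 2, msp-76 in 4, and msp-56 and msp-64 in 5 each.

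The 6 members that gave most member counts on days 2 and 4 were also compared at day 8. Not all of them were counted at every age on DMSO, as ssp-35 had 0 counts at day 4 and msp-59 had 0 at day 2. The gene ssp-10 had 6.20, 2.55, 2.59 and 2.94 CPM on SFN and 4.57, 2.07, 4.45 and 5.04 CPM on DMSO (-0.15 ± 0.59, not past the threshold). For ssp-37 the values were 3.26, 2.28, 2.35 and 2.94 CPM on SFN and 3.26, 3.88, 4.86 and 2.24 CPM on DMSO (-0.43 ± 0.52). The gene nspd-7 (chromosome IV, 10268975 to 10269187) had 4.73, 2.55, 1.18 and 3.40 CPM on SFN and 4.03, 3.37, 1.82 and 11.2 CPM on DMSO (-0.59 ± 0.57). In each of the 3 the groups overlapped. The other 3 had an unadjusted p under 0.05 and missed the threshold after adjustment, with log2 changes of -1.82 ± 0.64 for msp-59, -1.38 ± 0.66 for ssp-35 and -1.07 ± 0.53 for msp-31. Over the whole group of 6 the sum was 12.97 ± 3.00 CPM (SD, n = 4) on SFN and 23.5 ± 8.0 on DMSO, 9.89 to 16.96 against 17.61 to 35.3 CPM without overlap, and over the other 47 it was 8.65 ± 14.7 and 80.0 ± 35.6 CPM.

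**Figure D4:**
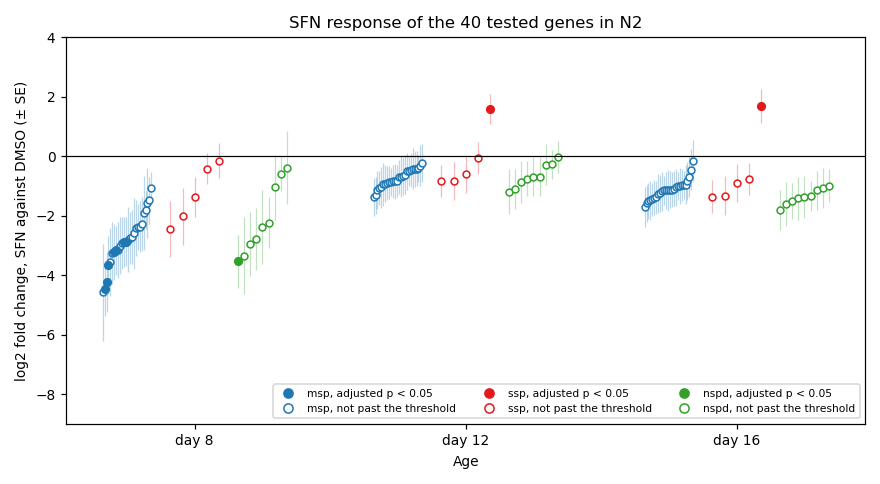
Fitted log2 fold change of SFN against DMSO (y axis, bars are ± SE) of the 40 tested members at days 8, 12 and 16 in N2, by family and ordered by size within it; filled points passed an adjusted p under 0.05 (edgeR). All 40 points lie below 0 at day 8 with a median of -2.66, and at days 12 and 16 the 1 filled point above 0 is ssp-37.

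Of the 28 other sperm genes tested at day 8, edgeR called 0, with 5 at an unadjusted p under 0.05 and a median log2 change of -0.52. The phosphatase genes gsp-3 and gsp-4 had 0.502 ± 1.005 and 0.491 ± 0.567 CPM (SD, n = 4) on SFN against 3.82 ± 2.19 and 2.04 ± 0.75 CPM on DMSO. The embryo factor gene spe-11 had 4.67 ± 1.34 CPM on SFN and 4.65 ± 1.10 CPM on DMSO. The summed CPM of the list was 489.6 to 568.6 on SFN and 502.7 to 571.1 on DMSO. The genes gsp-3, gsp-4 and spe-11 made up little of it, so it does not describe them. No gene of the male, larval, embryo, oocyte, sheath or MSP signalling lists was called at day 8 by edgeR, and 1 of them, an embryo gene, had an unadjusted p under 0.05. The sums were 7.9 to 9.62 CPM on SFN and 5.04 to 8.81 on DMSO for the 12 male genes, and 36.4 to 50.7 against 33.9 to 70.6 for the 17 larval genes. Early embryo genes summed to 154.9 to 171.9 CPM on SFN and 182.8 to 196.1 on DMSO, without overlap, and their part in the result was not tested.

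At day 12 the families overlapped between treatments. The sums on SFN were 223.5, 80.0, 138.6 and 276.4 CPM and those on DMSO 190.8, 234.4, 399.5 and 308.4 CPM. SFN replicates 2 and 3 lay below all of the DMSO libraries and replicates 1 and 4 lay among them. Of the 40 tested, 39 had negative fitted changes with a median of -0.70, but edgeR and DESeq2 called 0 as lower, where edgeR called 4.99% of all genes as lower, and 3 had an unadjusted p under 0.05. For 3 of 52 members the SFN group lay below the DMSO group without overlap, where 7.55% of all genes with a count did so. The 1 member called was higher, ssp-37, where 18.8% of all genes were called and 13.8% as higher. It had 5.84, 6.71, 2.69 and 5.71 CPM on SFN and 2.90, 0.268, 1.74 and 1.98 CPM on DMSO (1.58 ± 0.50, adjusted p = 0.019). SFN replicate 3 overlapped with DMSO replicate 1. Its call was lost without SFN replicate 1, SFN replicate 2 or DMSO replicate 2.

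At day 16 the sums were 100.1, 78.9, 113.9 and 411.3 CPM on SFN and 232.7, 301.6, 195.8 and 845.3 CPM on DMSO. In both treatments replicate 4 was the highest, and SFN replicate 4 was the only SFN library within the DMSO range. Again 39 of 40 fitted changes were negative, with a median of -1.15 and 16 at an unadjusted p under 0.05, and edgeR called 0 as lower, where 19.3% of all genes were called, 7.45% as lower. DESeq2 also called 0 as lower. Of 52 members 1 was lower and 1 higher without overlap, where 8.61% and 10.2% of all genes with a count were. Without SFN replicate 4, 25 were called as lower, and without DMSO replicate 1, 2 or 3 the number was 3, 2 and 7. The gene ssp-37 was the 1 member called, and as higher, at 2.11, 2.58, 1.27 and 2.86 CPM on SFN and 1.03, 0.317, 0.575 and 0.690 CPM on DMSO, without overlap (1.68 ± 0.58, adjusted p = 0.033, edgeR). Of all genes tested 11.9% were called as higher. Its adjusted p ran from 0.017 to 0.10 over the alternatives, and the call was lost without SFN replicate 1, 2 or 4 and without DMSO replicate 2, 3 or 4.

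Beside these later ages, other lists moved. The gene try-5, a seminal fluid protease of males, was higher on SFN at day 12 (2.33 ± 0.45, adjusted p = 8.0e-05, edgeR) and at day 16 (2.48 ± 0.46, adjusted p = 7.1e-05), 1 of 2 male genes tested, and most of the difference in the male list at day 12, 13.2 to 16.9 CPM on SFN and 4.22 to 7.77 CPM on DMSO, was try-5 itself, at a mean of 9.87 and 1.94 CPM. Early embryo genes fell at day 12, 5 of 8 tested, with sums of 134.9 to 156.2 CPM on SFN and 181.5 to 218.4 on DMSO, and at day 16 4 of 8 fell. Of the 17 oocyte and eggshell genes, 0 were called at day 12, with 1 at an unadjusted p under 0.05, and 15 rose at day 16. Of 12 tested genes of MSP signalling, 3 rose and 2 fell at day 12 and 3 rose at day 16. Of 7 tested larval genes, 1 fell at day 12 and 2 fell at day 16. Of 28 other sperm genes, edgeR called 0 at day 12, with 2 at an unadjusted p under 0.05. At day 16 it called 3 as lower, among them gsp-4 (-1.63 ± 0.45, adjusted p = 0.0076) and spe-18 (-1.20 ± 0.41, adjusted p = 0.030). It called 2 as higher, spe-39 (0.51 ± 0.12, adjusted p = 0.0013) and cpb-1 (0.34 ± 0.12, adjusted p = 0.033). The part of male, larval, embryo, oocyte and sheath RNA in the result was not tested.

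On days 2 and 4 edgeR called 0 members for SFN, with 1 and 4 of 40 at an unadjusted p under 0.05, where 4.33% and 10.3% of all genes were called. DESeq2 called 0 at day 2 and 1 at day 4, as higher. The member sums were 8.59 ± 2.64 CPM (SD, n = 4) on SFN and 7.36 ± 5.18 on DMSO at day 2, and 11.5 ± 1.5 and 8.53 ± 2.14 at day 4. At day 4, 1 of 16 members with a count was higher on SFN without overlap, where 7.77% of all genes with a count were. Of 28 other sperm genes edgeR called 2 at day 4. They were spe-11 as higher (adjusted p = 0.015), against a DMSO group without counts, and spe-48 as lower (-0.43 ± 0.13, adjusted p = 0.024). Also higher were 3 oocyte and eggshell genes and 1 sheath gene at day 4, and 1 embryo gene at day 2. In MSP signalling 1 rose and 1 fell at each age, as in the oocyte list at day 2. The SFN effect at day 8 was compared with those at days 4 and 12 as a difference of effects. Against day 4, edgeR called 0 of 40, with 4 at an unadjusted p under 0.05 and a lowest adjusted p of 0.173, where 0.605% of all genes were called. Against day 12, it called 0 of 40, with 12 at an unadjusted p under 0.05 and a lowest adjusted p of 0.058, where 3.51% were called. DESeq2 called 0 and 1. A member-by-member difference of the SFN effect between ages was therefore not shown.

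The mutants ask whether a response depends on DAF-16, the FOXO factor of insulin signalling, or on SKN-1, the Nrf-type factor of detoxification. In PX991, no member passed the filter on low counts, so the tests within the strain held none. Without the filter, edgeR called 3 members as higher on SFN at day 12. The share of all genes called in that fit is not given here, so the 3 calls are a description. With the filter, in a fit that held no member, 0.506% of all genes were called at day 4, 4.69% at day 12 and 36.1% between the ages on DMSO. The member sums at day 12 were 26.8, 1.12, 16.99 and 6.31 CPM on DMSO and 81.8, 98.2, 30.9 and 29.4 CPM on SFN. All 4 SFN libraries lay above the 4 DMSO libraries. SFN replicate 3 was the shallowest PX991 library, at 0.585 M counts, and its male list stood at 43.3 CPM, the highest of its group. Of 7 larval genes tested at day 12 in PX991, noah-1, noah-2 and mlt-11 rose on SFN and nas-37 fell, with list sums of 77.5 to 148.5 CPM on SFN and 59.6 to 116.0 on DMSO. The sheath gene inx-8 fell, 1 of 6. Of 11 other sperm genes tested edgeR called 0, with 1 at an unadjusted p under 0.05 and a median log2 change of 0.08, and no male gene was tested. The part of larval RNA in the result was not tested. For 4 of 48 members with a count the groups did not overlap, all higher on SFN, where 2.23% of all genes with a count did so. Of the 35 members with a ratio, 32 were higher on SFN, with a median log2 ratio of 2.06 with genes at 0 set to their bound. A ratio needed more than 3 counts in at least 1 group, so members could enter through the group in which they are high. Members are not replicates, and the ratios are a description. At day 4 the sums were 4.11, 11.1, 5.63 and 3.18 CPM on DMSO and 5.28, 5.61, 11.1 and 3.98 CPM on SFN, which overlap.

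Single members in PX991 rested on few counts. At day 12 msp-81 (chromosome IV, 9836034 to 9836417) had 1 count on DMSO, in replicate 3, and 7.21, 3.53, 1.55 and 1.45 CPM on SFN, all above the DMSO value of 0.850 CPM. The ratio was 25.98 with a counting interval of 4.24 to 1068. For msp-76 the DMSO libraries had 1.20, 0, 0 and 0 CPM and the SFN libraries 2.40, 8.56, 3.09 and 1.81 CPM, without overlap, a ratio of 10.1 (3.12 to 51.9). The gene msp-33 had 0 counts on DMSO and 4.81, 6.04, 0 and 1.09 CPM on SFN, so that SFN replicate 3 was at 0 too. In the opposite direction, ssp-37 had 0.400, 0.372, 0 and 1.58 CPM on DMSO and 0 counts on SFN.

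The SFN effect of PX991 was set against that of N2 in 1 fit over the strains, with 36 members tested. At day 12, 2 differences were called, both higher in PX991, where 3.92% of all genes were called and 0.961% as higher. They were msp-33 (difference of log2 changes 8.16 ± 1.74, adjusted p = 0.0041, edgeR) and msp-81 (5.11 ± 1.46, adjusted p = 0.040). In N2 the level of msp-33 at day 12 was 5.50, 0.805, 1.79 and 5.02 CPM on SFN and 6.24, 8.12, 10.8 and 8.72 CPM on DMSO, with SFN below DMSO and no overlap. In N2 msp-81 had 12.1, 4.03, 5.92 and 14.2 CPM on SFN and 6.15, 13.8, 19.4 and 17.1 CPM on DMSO, which overlap. The fitted difference of msp-33 rests on a group at 0 counts and is no bound. Of the 36, 35 differences were positive with a median of 3.42, and 22 had an unadjusted p under 0.05, against a median of 0.01 over all genes. DESeq2 called 0 of them. Over the alternatives the adjusted p ran from 2.9e-05 to 0.051 for msp-33 and from 0.00068 to 0.13 for msp-81, whose call was lost for 10 of 16 libraries left out in turn. At day 4 edgeR and DESeq2 called 0 of 36, with 0 at an unadjusted p under 0.05, where edgeR called 0.254% of all genes. Strain and table cannot be told apart in levels, while the SFN effect was taken within each.

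In EU1 the day 12 libraries spread widely. On DMSO the member sums were 3.97, 94.1, 24.1, 406.5, 25.5 and 67.8 CPM in replicates 1 to 6, and on SFN they were 4.63, 4.54, 3.63, 30.8, 5.78 and 52.97 CPM. Replicate 4 on DMSO was far above the others, replicate 1 on DMSO was at the level of day 4, and the groups overlapped. The SFN library was the lower of its number in 5 of 6 pairs, and in replicate 1 the higher. At day 4 the sums were 9.66, 7.65, 9.02, 14.1, 12.0 and 8.82 CPM on DMSO and 7.26, 7.17, 12.5, 11.6 and 6.69 CPM in SFN replicates 2 to 6. Replicates 4, 5 and 6 of this strain were collected at separate times, and on SFN at day 12 replicates 4 and 6 were the highest.

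Only 4 members passed the filter in EU1, 3 msp and 1 nspd gene. At day 12, 1 fell, msp-59, where 19.3% of all genes were called and 8.1% as lower. It had 0, 0, 0, 0.315, 0 and 2.73 CPM on SFN and 0.496, 4.96, 0, 16.0, 1.61 and 6.45 CPM on DMSO, with overlap at the low end (-2.93 ± 0.82, adjusted p = 0.016, edgeR). Without DMSO replicate 2, 4 or 6 or SFN replicate 6 it did not pass the filter on low counts, and the other 8 libraries left out in turn kept the call. All 4 tested members had an unadjusted p under 0.05 and negative changes. Of these, msp-40 passed the filter mainly through the DMSO group of day 12, in which it is high. That choice favours a lower value on SFN, so its change is a description. Of the 47 members with a ratio, 46 were lower on SFN, with a median log2 ratio of -2.98. Without DMSO replicate 4, 39 of 43 were lower and the median was -1.58. A ratio needed more than 3 counts in at least 1 group, so members could enter through the group in which they are high. Members are also not replicates, so these ratios are a description. The mean msp sum on DMSO was 72.3 CPM, or 28.7 without that library, and on SFN 8.93, or 3.56 without replicate 6. For 1 of 52 members the groups did not overlap, lower on SFN, where 1.24% of all genes with a count did so. Between days 4 and 12 on DMSO, msp-40 (chromosome II, 4825414 to 4825797) rose by at least 4.72, from 0 counts to 0, 3.30, 3.92, 15.7, 0 and 3.66 CPM (adjusted p = 0.0053, edgeR). It passed the filter only through libraries of day 12, the age at which it is high, so this is a description and not support for a change with age. It was the 1 call of 4, where 46% of all genes were called, 22.6% as higher. Of 51 members with a count 1 was higher at day 12 without overlap, where 4.71% of all genes were. Without DMSO replicate 2, 3, 4 or 6 of day 12, msp-40 did not pass the filter. At day 4 edgeR and DESeq2 called 0 of 4 for SFN, with 0 at an unadjusted p under 0.05, where edgeR called 0.251% of all genes.

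Of 14 other sperm genes tested in EU1 at day 12, 3 fell on SFN and 0 rose. They were spe-41 (-1.50 ± 0.29, adjusted p = 0.0012, edgeR), which encodes a calcium channel of sperm, spe-15 (-0.96 ± 0.23, adjusted p = 0.0067), which encodes a myosin, and fer-1 (-1.33 ± 0.40, adjusted p = 0.024), which encodes a ferlin of membrane fusion. Of 4 early embryo genes tested 3 fell, with sums of 108.2 to 138.4 CPM on SFN and 140.6 to 227.1 CPM on DMSO. Their part in the result was not tested. The male list summed to 9.32 to 15.7 CPM on SFN and 7.44 to 13.2 CPM on DMSO, and in DMSO replicate 4 a count was seen for 8 of the 12 genes, with cwp-1, cwp-2, cwp-3 and cwp-5 at 0.

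**Figure D5:**
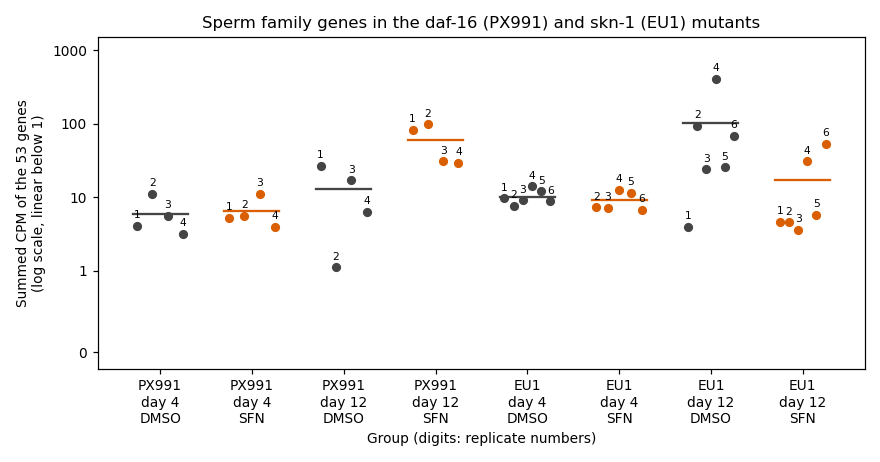
Summed CPM of the 53 genes in each library of PX991 and EU1 (points, labelled by replicate number; bars are group means), on an axis that is logarithmic above 1 and linear below. At day 12 the 4 PX991 SFN libraries, at 29.4 to 98.2 CPM, lie above the DMSO libraries at 1.12 to 26.8 CPM, while the EU1 groups overlap and DMSO replicate 4 stands at 406.5 CPM.

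The SFN effects of EU1 and N2 differed in 1 of 36 members at day 12, ssp-16 (chromosome I, 6102067 to 6102396), where 1.45% of all genes were called, 1.11% as lower. The difference was -3.61 ± 0.95 on the log2 scale (adjusted p = 0.044, edgeR). In EU1 it had 0, 0.708, 0.280, 5.22, 0.803 and 2.37 CPM on DMSO and 2 counts on SFN, in replicate 6. In N2 the libraries had 3.44, 1.88, 2.33 and 3.65 CPM on SFN and 4.22, 3.93, 5.63 and 3.41 CPM on DMSO. The EU1 groups overlapped at 0, and the N2 groups overlapped too. DESeq2 called 0, and edgeR's call was lost for 16 of 20 libraries left out in turn. In all, 11 members had an unadjusted p under 0.05, and the median difference of the 36 was -1.75, against -0.12 over all genes. At day 4 edgeR and DESeq2 called 0 of 36, with 0 at an unadjusted p under 0.05, where edgeR called 9.6% of all genes.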

How the data were processed

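The deposited values were read counts per gene. Per the submitters' processing notes, the authors counted reads on WBcel235 with featureCounts of Subread 2.0.2. In the N2 treatment table reads were counted over exons by gene identifier on Ensembl release 108, without strand or multiple-mapping options, per the file headers, so reads shared by near-identical copies may be missing from it. The aligner, and options for the other 2 tables, are not given in the sources used here. All 46926 identifiers were found in Ensembl release 115 (WBcel235), the source of symbols and coordinates.

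Counts were tested with edgeR 4.0.16 in R 4.3.3 after filterByExpr and TMM scaling, with robust quasi-likelihood F tests and Benjamini-Hochberg adjustment. Fits covered 12735 genes in N2, 11778 in trials 2 and 3 (with a term per trial and age), 10073 in PX991, 11170 in EU1 (with a term for collection) and 12589 over the strains, and the code was tested on simulated counts. DESeq2 1.42.0, other scalings, no filter, a replicate block and leaving out each library were alternatives. None of 199 replicate pairs was identical (chi-square per degree of freedom 2.21 to 250). The members, the marker lists and the tests were chosen with earlier results of these data known. Named were the 4 members of each family with the highest mean level, up to 6 called members per comparison and up to 4 called genes per list, by adjusted p, with few others chosen after their values were seen. Replicate numbers paired the samples only between SFN and DMSO in EU1, from the correlation of their deviations from group means (0.118 to 0.254 over 5 pairs at day 4, 0.130 to 0.459 over 6 at day 12). A fold against 0 counts used a floor of 3 counts over the group.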

Additional observations from a re-analysis of the deposited data

Results flagged for a closer look

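Among 84 sums of a family in a group of 4 to 6 libraries, 14 had 1 library far from the others by Dixon's test, which chance gives in about 1 of 20 groups. In the N2 treatment table, replicate 4 on DMSO at day 16 had 626.4 CPM of msp genes, against 143.5 to 216.3 CPM in the others. Replicate 4 on SFN at day 16 had 304.9 CPM of msp and 37.8 CPM of ssp genes. Replicate 2 on SFN at day 8 had 29.1 CPM of msp genes, where the other 3 had at most 3.77 CPM, and replicate 3 on SFN at day 4 was the low one at 1.965 CPM.

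In trial 2, replicate 2 of day 16 stood out in all 3 families, with 126.6 CPM of msp, 25.99 of ssp and 31.65 of nspd genes, and replicate 4 of day 8 had 2.86 CPM of nspd genes. In trial 3, replicate 4 of day 8 had 5.88 CPM of msp genes. In EU1 replicate 4 on DMSO at day 12 stood out in all 3, with 290.1 CPM of msp, 40.75 of ssp and 75.6 of nspd genes. In PX991 replicate 1 on DMSO at day 12 had 6.00 CPM of nspd genes.

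Differences of the SFN effect between strains at day 12 passed the test in 3 members. They were 8.165 for msp-33 and 5.11 for msp-81 in PX991 minus N2, and -3.61 for ssp-16 in EU1 minus N2, all on the log2 scale.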

How the results depend on the processing

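No result reversed. Of the counts of members recomputed under other settings, 195 stayed within 1.5 times the reported count and 37 did not. The 195 include many counts that were 0 in the main fit and stayed 0, so they say little on stability. Shares of all genes called under the other settings are not given here, so the numbers below show only how the counts of members moved. With the size factors of DESeq2, N2 SFN day 4 had 1 higher. Without a filter, the lower calls were 22, 1 and 11 for SFN at days 8, 12 and 16 in N2 (0 higher at day 16), 21 for SFN at day 12 in EU1, 2 for day 8 against day 4 in the trials and 0 for EU1 minus N2. Higher calls were then 23 for N2 day 12 against day 8, 10 and 1 for that step and the next in the trials, 5 for the day 12 minus day 8 difference, 3 for SFN at day 12 and 1 for the age step in PX991, 29 for the age step in EU1 and 10 for PX991 minus N2. DESeq2's test called 13 as lower at day 8, 1 as higher at day 4, 5 for day 12 against day 8, 0 for that step in the trials, 1 for the day 12 minus day 8 difference, 1 for the age step in PX991, 3 as lower and 5 for the age step in EU1, and 0 for both strain differences at day 12.

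Where replicate numbers did not pair samples, the replicate block gave 15 lower at day 8, 7 lower at day 16, 1 for the day 12 minus day 8 difference and 0 for EU1 minus N2. Fitted in EU1, where they did, it changed no SFN call. A fit of only the 2 groups gave 3 lower at day 8, 3 lower at day 12 and 0 higher at day 16. Without the 2 N2 DMSO libraries with fewest genes, chosen after seeing the data, there were 1 higher at day 4, 5 lower at day 16, 22 for day 12 against day 8 and 1 for the day 12 minus day 8 difference. Without TMM, the msp sum of trial 2 at day 2 was 1.21 CPM in place of 1.34.

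Leaving out 1 library at a time gave ranges of 0 to 1 higher at day 4, 2 to 19 lower at day 8, 0 to 1 higher at day 12, and 0 to 1 higher and 0 to 25 lower at day 16. They were 1 to 2 lower for day 4 against day 2, 2 to 17 for day 12 against day 8, 1 to 3 and 0 to 1 for the later steps in the trials, 0 to 10 for the day 12 minus day 8 difference, 0 to 2 lower for SFN and 0 to 1 for age in EU1, 1 to 3 for PX991 minus N2 and 0 to 7 lower for EU1 minus N2. The cause was not tested. The filter on low counts limits the tests: 40 of 53 members in N2, 19 in the trials, 4 in EU1 and 0 in PX991 passed it.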

Other observations

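The order of the members by level was alike in most libraries. In 36 libraries with at least 100 member counts, the order of the 53 levels was compared with that in the rest of the same table, and Spearman's rho had a median of 0.849 and a range of 0.142 to 0.969. The lowest was N2 on SFN at day 8, replicate 1. These values share the gene lengths and the way reads were assigned to similar copies.

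In trials 2 and 3 the libraries of days 12 and 16 differed widely in member RNA within a group, as from 2.64 to 184.2 CPM in trial 2 at day 16. Over these 16 libraries each gene's deviation from its group mean, as log2(CPM + 0.5), was correlated with that of the sum of 47 members (without the 6 counted in most libraries), for 14336 genes. This describes 16 libraries that share their depth and scaling, and no p is given. The median r was 0.027 over all genes. Outside the 3 families the sperm phosphatase genes gsp-4 (0.980) and gsp-3 (0.962) and msd-4 (0.962) were among the highest, with nsph-3.2 (0.984), spch-3 (0.962) and the unnamed R09E10.6 (0.986) and K08C9.2 (0.985). The median was 0.594 over 34 other sperm genes, 0.209 over 5 genes of male tissues, 0.300 over 10 of moulting larvae, -0.193 over 8 of early embryos and -0.386 over 17 of oocytes and the eggshell.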
